A study of Mus musculus with 11 samples.

Results

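The *Glo1*-*Dnah8*-*Btbd9* segment of mouse chromosome 17 was followed in RNA-seq counts of thymocytes from 11 mice. Its 6 genes are *Glo1*, *Dnah8*, *Btbd9*, *Glp1r* and the antisense transcript *Gm10503*, which lie together in a 0.8 Mb window of GRCm38, and the retrocopy *Glo1-ps*, which lies on chromosome 2. They are 6 of the 54418 genes in the count table and were chosen by symbol, on their counts in *Puma*-/-*p21*-/-*Zmat3*-/- (TKO) thymocytes, which were already known to be high. Their levels in TKO mice are therefore given as a description, and the calls of the fits across all genes are counted once, beside the share called in the whole table, without being read as a test of these genes.

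Thymocytes came from 4 wt mice, 4 mice that lacked *Zmat3*, and 3 TKO mice that lacked *Zmat3*, *Puma* (gene symbol *Bbc3*) and *p21* (gene symbol *Cdkn1a*) together. All were young adults of 8 to 12 weeks on a C57BL/6-WEHI background, and the labels name no treatment. The 3 genes are constitutive knockouts of the whole animal, so every cell of the thymus carried the alleles, and *Zmat3*-/- and TKO mice share the absence of *Zmat3*. TKO mice were bred by crossing *Zmat3*-/- with *Puma*-/-*p21*-/- mice. The *Cdkn1a* gene is itself on chromosome 17, 1.11 Mb from *Btbd9* and 1.48 Mb from *Glo1*. Loss of *p21*, loss of *Puma* and whatever sequence was inherited together with the targeted *Cdkn1a* allele cannot be told apart in these mice, since all 3 TKO mice carry them all.

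*Glo1* encodes glyoxalase I, the glutathione-dependent enzyme that starts the removal of methylglyoxal, a reactive by-product of glycolysis. *Dnah8* encodes an axonemal dynein heavy chain best known from the sperm tail, *Btbd9* a BTB-domain protein of the kind that recruits substrates to CUL3 ubiquitin ligases, and *Glp1r* the receptor for the gut hormone GLP-1. Laboratory mice are known to differ in the number of copies of a chromosome 17 segment that holds *Glo1*. Genome copies were not measured in this experiment, and RNA counts do not give them.

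The libraries held between 17669715 and 80207003 counts. The 15 thymocyte markers, among them *Cd3e*, *Cd4*, *Cd8a* and *Rag1*, summed to between 15173 and 21551 CPM (counts scaled to a common library size with TMM factors), and none was at 0. Markers of other cells were counted too. Erythroid markers summed to medians of 1625, 2364 and 3570 CPM in wt, *Zmat3*-/- and TKO mice, with 880 to 8558 among wt mice. In the same order the medians were 618, 506 and 534 for B cell, 230, 285 and 309 for myeloid and 255, 241 and 232 for thymic stroma markers. wt mice fell into 2 pairs. Across genes, the correlation of log2 CPM was 0.982 between wt mice 1 and 2 and also between wt mice 3 and 4, but 0.897 to 0.926 across the pairs, against 0.985 to 0.990 among *Zmat3*-/- and 0.972 to 0.983 among TKO mice. *Xist* was at or above 505 CPM in 5 mice, numbers 1 and 2 of wt and of *Zmat3*-/- and number 1 of TKO, and at or below 2.54 CPM in the other 6. Reads remained on each targeted gene, as *Zmat3* had 7.78 to 8.25 CPM in TKO, 5.34 to 6.85 in *Zmat3*-/- and 9.88 to 26.8 in wt mice. *Cdkn1a* had 2.49 to 3.52 CPM in TKO mice and 3.53 to 10.4 in the other 8, and *Bbc3* 12.9 to 15.2 and 15.3 to 20.1. Because the RNA came from whole thymus cell suspensions, a change in the share of cells that express a gene and a change in RNA per cell cannot be told apart.

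*Glo1* lies on the minus strand at chr17:30584936-30626871 (GRCm38, GENCODE M21), and *Glo1-ps* is an intronless copy of its coding sequence on chromosome 2. Of the 525 words of 31 bases in *Glo1-ps*, 454 (86.5%) also occur in a *Glo1* transcript, and no other annotated gene shares one. Reads made of shared words alone carry nothing that assigns them to either gene, and the authors' quantification with Salmon could divide them.

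*Glo1* was higher in every TKO mouse than in any other mouse. Its level was 99.0, 95.8, 68.7 and 59.8 CPM in wt mice 1 to 4, 77.6, 75.3, 80.4 and 78.5 in *Zmat3*-/- mice 1 to 4, and 210, 210 and 240 in TKO mice 1 to 3. The means were 80.8 ± 19.5 CPM in wt (SD, n = 4), 77.9 ± 2.11 in *Zmat3*-/- (SD, n = 4) and 220 ± 17.4 in TKO thymocytes (SD, n = 3), a ratio of TKO to wt of 2.72 and of TKO to *Zmat3*-/- of 2.82. The lowest TKO mouse was 2.12 times the highest wt mouse. In the edgeR fits the log2FC was 1.40 ± 0.190 (SE) against wt and 1.44 ± 0.0570 (SE) against *Zmat3*-/- mice. The larger error against wt goes with the wt pairs, since wt mice 1 and 2 were above and wt mice 3 and 4 below the level of every *Zmat3*-/- mouse.

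*Glo1-ps* went from near 0 to a level well counted in each TKO library. Its counts were 0, 0, 0 and 3 in wt mice, 6, 1, 0 and 0 in *Zmat3*-/- mice, and 696, 383 and 1871 in TKO mice, which is 17.5, 21.3 and 25.1 CPM. Pooled over mice and scaled to library size, the TKO to wt ratio of counts was 917, with an exact 95% interval of 314 to 4451 for counting error only, and the TKO to *Zmat3*-/- ratio was 408 (198 to 1015). Of the 7 *Zmat3*-/- counts 6 were in mouse 1, and the log2FC in edgeR was 8.48 with that mouse and 10.42 without it. TKO mice did not overlap with either other genotype, while wt and *Zmat3*-/- mice overlapped.

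The share of the combined *Glo1* and *Glo1-ps* counts that lay on the retrocopy was 7.71%, 9.21% and 9.49% in TKO mice 1 to 3, with 95% Wilson intervals of 7.18 to 8.28%, 8.37 to 10.1% and 9.09 to 9.91%. In the other 8 mice the share was at most 0.192%. These intervals do not hold the error of dividing shared reads between the genes. With the counts of both genes added, the summed level was 80.9 ± 19.5 CPM in wt (SD, n = 4), 78.0 ± 2.09 in *Zmat3*-/- (SD, n = 4) and 241 ± 20.8 in TKO mice (SD, n = 3). *Glo1-ps* had counts almost only in TKO mice, so adding them could only widen the difference and does not check it. With the counts of *Glo1-ps* added to *Glo1* before the fit, the log2FC of *Glo1* was 1.53 against wt and 1.58 against *Zmat3*-/- mice. Whether reads on *Glo1-ps* came from the retrocopy itself or from *Glo1* transcripts was not tested, because no reads were analysed here.

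**Figure D1:**
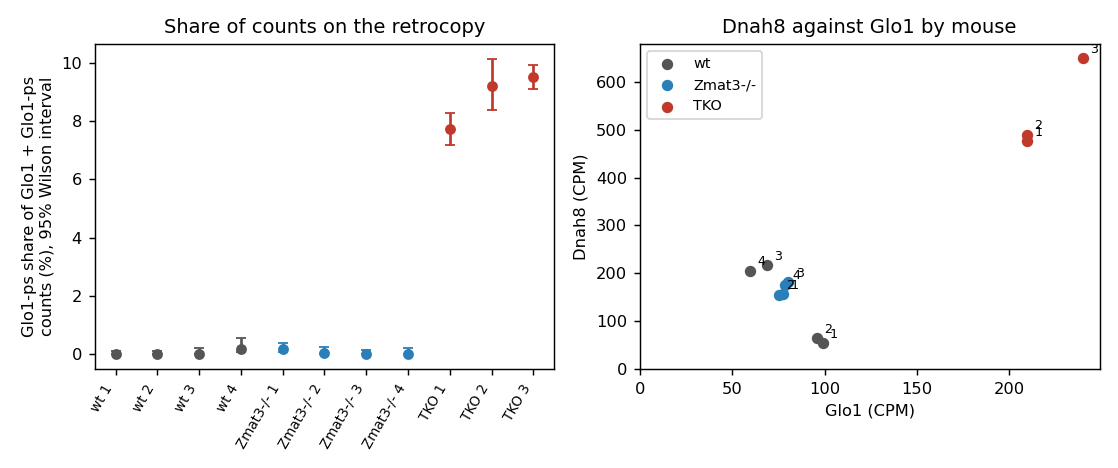
Left, share of the combined *Glo1* and *Glo1-ps* counts assigned to *Glo1-ps* (%) in each of the 11 mice, with 95% Wilson intervals: TKO mice lie between 7.71% and 9.49% and the other 8 mice at or below 0.192%. Right, *Dnah8* against *Glo1* (CPM), 1 numbered point per mouse: TKO mice sit apart at the upper right, and wt mice 1 and 2 lie below and to the right of wt mice 3 and 4.

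*Dnah8* lies next to *Glo1* on the plus strand, at chr17:30624354-30877365. Its level was 53.7, 64.0, 217 and 206 CPM in wt mice 1 to 4, 157, 155, 182 and 176 in *Zmat3*-/- mice, and 476, 489 and 649 in TKO mice. Every TKO mouse was above every other mouse, the lowest being 2.19 times the highest wt and 2.62 times the highest *Zmat3*-/- mouse. The log2FC was 1.93 ± 0.518 (SE) against wt and 1.63 ± 0.0870 (SE) against *Zmat3*-/- mice. Within wt mice *Dnah8* and *Glo1* went opposite ways, so the ratio of their CPM was 0.542 and 0.668 in wt mice 1 and 2 but 3.16 and 3.44 in wt mice 3 and 4. That ratio lay within 2.27 to 2.71 in TKO and within 2.02 to 2.26 in *Zmat3*-/- mice. Fitted without wt mice 1 and 2, the log2FC of TKO against wt was 1.28 for *Dnah8* and 1.71 for *Glo1*. Fitted without wt mice 3 and 4 it was 3.16 and 1.15, so which of the 2 genes had the larger difference depended on the wt mice used.

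*Dnah8* was the most counted axonemal dynein heavy chain in these thymocytes. Divided by the length of its annotated exons, its level was 5.04 CPM per kb in wt, 6.25 in *Zmat3*-/- and 20.1 in TKO mice. Of the 14 other *Dnah* genes, the highest in any mouse was 1.06 CPM per kb, below the 2.00 CPM per kb of *Dnah8* in its lowest mouse. *Dnah14* and *Dnah17* were the only others with enough counts to be tested, and *Dnah14* had 11.1 to 12.3 CPM in TKO, 9.84 to 11.8 in *Zmat3*-/- and 7.27 to 17.2 in wt mice. The 10 germ cell markers, listed because *Dnah8* is known from sperm, summed to between 0.423 and 1.94 CPM over all mice, and the spermatid genes *Tnp1* and *Odf1* were at 0 in every mouse.

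*Btbd9*, on the minus strand at chr17:30215524-30576488, showed the same order with a smaller difference. Its level was 26.9, 32.4, 36.0 and 34.0 CPM in wt, 36.7, 33.8, 36.8 and 36.7 in *Zmat3*-/- and 48.9, 47.9 and 63.5 in TKO mice. The lowest TKO mouse was 1.33 times the highest wt and 1.30 times the highest *Zmat3*-/- mouse. The log2FC was 0.68 ± 0.141 (SE) against wt and 0.51 ± 0.0731 (SE) against *Zmat3*-/- mice, both under the 1.5 that calls required.

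*Gm10503* is an antisense transcript on the minus strand at chr17:30920338-30963220 that overlaps the 3′ part of *Glp1r*. It had 0, 0, 0 and 1 counts in wt, 0, 1, 0 and 0 in *Zmat3*-/- and 484, 232 and 1140 in TKO mice. In CPM, TKO mice had 12.2, 12.9 and 15.3, and the pooled ratio to wt was 1731 with an exact 95% interval of 310 to 68426. Its 3 TKO levels lay closer together than those of *Glo1-ps*.

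*Glp1r*, on the plus strand at chr17:30901817-30940791, was hardly expressed. It had 4, 12, 2 and 2 counts in wt, 6, 7, 6 and 16 in *Zmat3*-/- and 14, 12 and 64 in TKO mice, or at most 0.860 CPM, and did not pass the filter on low counts for any comparison. The 3 TKO mice were above all wt mice, but *Zmat3*-/- mouse 4, at 0.664 CPM, was above TKO mouse 1, at 0.352 CPM. The pooled ratio of TKO counts was 4.20 (exact 95% interval 2.56 to 7.20) to wt and 2.49 (1.67 to 3.79) to *Zmat3*-/- mice. Single mice carried much of these ratios, since wt mouse 2 held 12 of the 20 wt counts and TKO mouse 3 held 64 of the 90 TKO counts. Without wt mouse 2 the ratio to wt was 7.07, and without TKO mouse 3 the ratios were 2.78 to wt and 1.65 to *Zmat3*-/- mice. The library kit is not stated to mark strand, so reads over the shared part of *Glp1r* and *Gm10503* cannot be told apart.

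**Figure D2:**
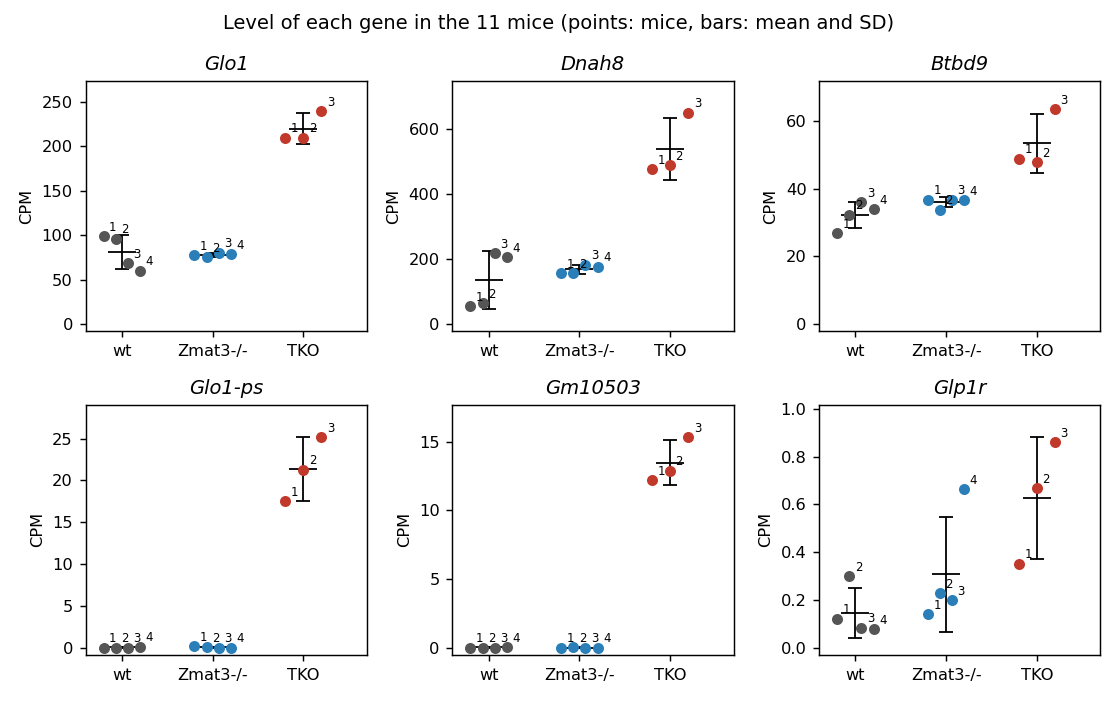
Level (CPM, linear axes that differ between panels) of the 6 genes in each mouse, numbered, with the mean and SD of each genotype. For *Glo1*, *Dnah8*, *Btbd9*, *Glo1-ps* and *Gm10503* every TKO point lies above all others, and for *Glp1r* *Zmat3*-/- mouse 4 lies among the TKO points.

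Of the 6 genes, 5 had enough counts to enter the fits with TKO mice. A gene was called when its adjusted p was under 0.05 and its absolute log2FC above 1.5. *Glo1-ps* and *Gm10503* met this against wt mice, where 0.241% of 13260 genes were called, and 3 genes, these and *Dnah8*, met it against *Zmat3*-/- mice, where 0.122% of 13124 were. With no threshold on the fold, *Glo1* also passed against wt (0.294% of genes) and all 5 passed against *Zmat3*-/- mice (0.221%). Among 13625 genes, 125 (0.917%) had every TKO mouse above every other mouse, 5 of them on this list. These contrasts chose the genes, so nothing further is read from the counts. Both contrasts also share the TKO mice. TKO mouse 3, the most deeply sequenced, was the highest of all mice for each of the 6 genes.

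The comparison of *Zmat3*-/- with wt thymocytes holds no TKO mouse and asks whether loss of *Zmat3* alone changed these genes. *Glo1*, *Dnah8* and *Btbd9* could be tested, and none was called, against 0.319% of 13488 genes. *Glo1* had a log2FC of −0.04 ± 0.156 (SE, edgeR adjusted p = 0.904), *Dnah8* of 0.30 ± 0.455 (SE, edgeR adjusted p = 0.755) and *Btbd9* of 0.16 ± 0.114 (SE, edgeR adjusted p = 0.519). At adjusted p under 0.05 and any fold, where 0.764% of genes passed, none of the 3 passed in edgeR or DESeq2, and none had an unadjusted p under 0.05. When the paired mice were fitted as blocks, 8 genes in place of 43 were called over the whole table, and again none of these 3. In 2-sided exact permutation tests of log2(CPM + 1), 4 mice against 4, p was 0.943 for *Glo1*, 0.429 for *Dnah8*, 0.0857 for *Btbd9* and 0.257 for *Glp1r*, where 0.0286 is the smallest p that the design allows. *Glo1-ps* and *Gm10503*, with at most 7 counts in a genotype, were left out of these tests.

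For *Dnah8* and *Glo1* the sign of this comparison depended on which wt mice entered it. In fits added after the data were seen, *Dnah8* was lower in *Zmat3*-/- mice, with a log2FC of −0.35 ± 0.0744 (SE) when wt mice 1 and 2 were left out, and higher, with a log2FC of 1.52 ± 0.106 (SE) when wt mice 3 and 4 were. These fits restate the split of the wt mice, by which the pairs were chosen, and are given without a test. In the same order, the log2FC of *Glo1* was 0.27 ± 0.0657 (SE) and −0.31 ± 0.0674 (SE). *Btbd9* kept its sign, with 0.032 ± 0.0764 (SE) and 0.30 ± 0.0965 (SE). In each genotype the mice with high *Xist* had the lower *Dnah8*. These were wt mice 1 and 2, *Zmat3*-/- mice 1 and 2 (157 and 155 CPM beside 182 and 176) and TKO mouse 1 (476 CPM beside 489 and 649). With *Xist* level as covariate, the log2FC of *Dnah8* in *Zmat3*-/- against wt mice was 0.54 (edgeR adjusted p = 0.425).

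The other tested genes of the segment had a smaller log2FC than *Glo1* and *Dnah8* in both TKO comparisons. Besides the 5 named genes, 20 annotated genes overlap the window, and 3 of them were tested. None of the 3 was called by edgeR or DESeq2, where edgeR called 0.241% of all genes against wt and 0.122% against *Zmat3*-/- mice, so that no call among 3 genes says little. *AC165962.1* alone had an unadjusted p under 0.05, against *Zmat3*-/- mice, where 4.49% of all genes did and where it also passed adjusted p under 0.05 in DESeq2. *Zfand3*, which encodes a zinc finger protein and ends at the edge of the segment beyond *Btbd9*, had a log2FC of 0.13 ± 0.0813 (SE, edgeR adjusted p = 0.983) against *Zmat3*-/- and 0.08 ± 0.151 (SE, edgeR adjusted p = 0.849) against wt mice. Its means were 67.1 ± 10.3 CPM in wt (SD, n = 4), 64.3 ± 1.48 in *Zmat3*-/- (SD, n = 4) and 72.7 ± 8.92 in TKO thymocytes (SD, n = 3). *1700097N02Rik*, a non-coding transcript at the junction of *Glo1* and *Dnah8*, on the minus strand, had 25.8 ± 7.72 CPM in wt (SD, n = 4), 21.2 ± 2.60 in *Zmat3*-/- (SD, n = 4) and 25.2 ± 1.53 in TKO mice (SD, n = 3). Its log2FC was 0.20 ± 0.106 (SE, edgeR adjusted p = 0.983) against *Zmat3*-/- and −0.07 ± 0.227 (SE, edgeR adjusted p = 0.909) against wt mice, beside the 1.44 and 1.63 of *Glo1* and *Dnah8* against *Zmat3*-/- mice. *AC165962.1*, an antisense transcript between *Btbd9* and *Glo1*, had 7.06 to 9.59 CPM in TKO and 3.53 to 5.20 in *Zmat3*-/- mice, a log2FC of 0.92 ± 0.166 (SE, edgeR adjusted p = 0.0974). wt mice had 4.15 to 7.45 CPM, overlapping TKO mice, and the log2FC against them was 0.46 ± 0.227 (SE, edgeR adjusted p = 0.532).

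The other 17 genes of the segment had too few counts to be tested, and 6 of them had none. Of the 9 with at least 20 counts in all, 4 had every TKO mouse above every other mouse in CPM, as had 0.741% of the 7291 genes of the whole table that were likewise untested with at least 20 counts. *AC165962.4*, a pseudogene inside *Glo1*, had 0.830, 1.06 and 0.538 CPM in TKO mice and at most 0.364 elsewhere. *AC165951.2*, antisense to the 3′ end of *Dnah8*, had 1.51, 1.39 and 0.887 CPM and at most 0.769 elsewhere. *AC165951.5*, between *Dnah8* and *Glp1r*, had 0.503, 0.556 and 0.968 CPM and at most 0.423 elsewhere, and *AC165951.4* had 0.252, 0.111 and 0.148 CPM and at most 0.0608 elsewhere. The order of *AC165951.4* rests on few counts, with 10, 2 and 11 in TKO mice, 2 in wt mouse 1, 1 in *Zmat3*-/- mouse 4 and none in the others, and the 2 counts of TKO mouse 2 are below the 3 that its library was taken to show. These transcripts lie within or beside *Glo1* and *Dnah8*, so reads of the larger genes may be among their counts, which was not tested. *Umodl1*, at the far end of the segment, had 0.201, 0.333 and 0.215 CPM in TKO mice, inside the range of the others.

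**Figure D3:**
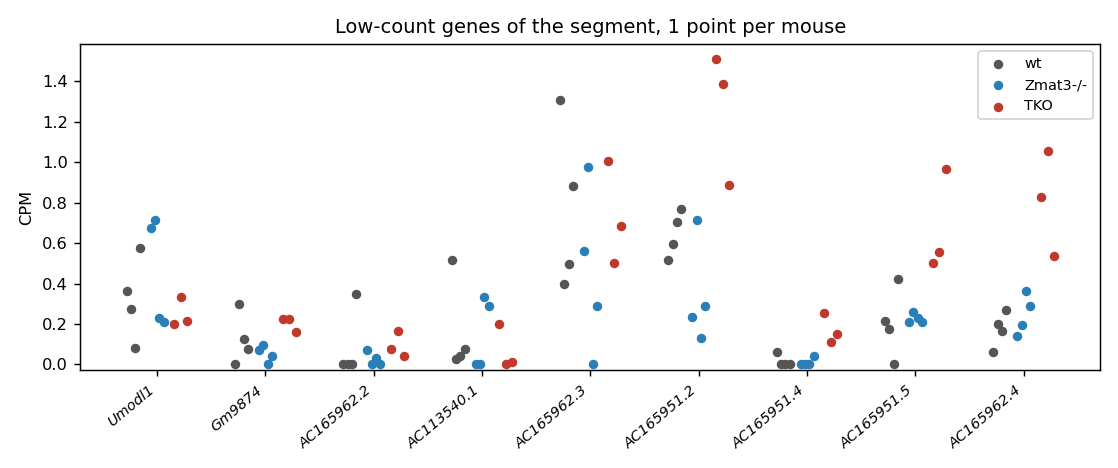
Level (CPM) of the 9 segment genes with at least 20 counts in all but too few to be tested, 1 point per mouse and coloured by genotype. In *AC165951.2*, *AC165951.4*, *AC165951.5* and *AC165962.4* the 3 TKO points lie above all others.

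In the flanks of 1 Mb on either side, 29 of 76 genes were tested in at least 1 comparison. None of the 27 tested between TKO and *Zmat3*-/- mice was called by edgeR or DESeq2, although 6 of them had an unadjusted p under 0.05 in edgeR, where 4.49% of all genes did, and *Tbc1d22b* and *Ubash3a* passed adjusted p under 0.05 at any fold in DESeq2. Their log2FC ran from −0.35 to 0.99 with a median of 0.02. The nearest tested protein-coding gene on the distal side, the cholesterol transporter gene *Abcg1*, had a log2FC of 0.30 ± 0.0897 (SE, edgeR adjusted p = 0.747) against *Zmat3*-/- and 0.43 ± 0.131 (SE, edgeR adjusted p = 0.370) against wt mice. It had 192, 222 and 254 CPM in TKO mice, each above the 149 to 169 of wt and the 158 to 189 of *Zmat3*-/- mice, and DESeq2 gave an adjusted p of 0.0418 against wt. On the proximal side the nearest was *Mdga1*, an adhesion molecule gene that had enough counts only for the comparison of *Zmat3*-/- with wt mice, where its log2FC was 0.19 ± 0.382 (SE, edgeR adjusted p = 0.822). Its untested levels in TKO mice were 0.753 to 1.28 CPM. In the comparisons with wt, 1 of 27 flank genes was called in TKO (0.241% of all genes) and 2 of 29 in *Zmat3*-/- mice (0.319% of all genes), and whether these counts differ from the 0 of 27 between TKO and *Zmat3*-/- mice (0.122% of all genes) was not tested. At unadjusted p under 0.05 in edgeR were 10 of 27 in TKO (10.3% of all genes) and 6 of 29 in *Zmat3*-/- mice (16.1% of all genes). In DESeq2, 3 and 5 flank genes passed adjusted p under 0.05 at any fold. *Sik1*, a salt-inducible kinase gene, had a log2FC of 3.09 ± 0.156 (SE, edgeR adjusted p = 0.000205) in TKO and 2.90 ± 0.143 (SE, edgeR adjusted p = 0.00011) in *Zmat3*-/- mice. The antisense transcript *Gm26885* had 2.19 to 3.45 CPM in TKO, 3.51 to 3.78 in *Zmat3*-/- and 0.425 to 0.919 in wt mice. Its log2FC was 2.50 ± 0.282 (SE, edgeR adjusted p = 0.00979) in *Zmat3*-/- mice, a call lost in edgeR with the replicate block (adjusted p = 0.0752) and without any 1 of the *Zmat3*-/- mice. In TKO mice it was 2.18 ± 0.396 (SE, edgeR adjusted p = 0.109), which was called by DESeq2 (adjusted p = 0.000123) and in 1 edgeR fit of all genotypes (adjusted p = 0.00576). Between TKO and *Zmat3*-/- mice the log2FC of *Sik1* and *Gm26885* was 0.19 and −0.33.

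**Figure D4:**
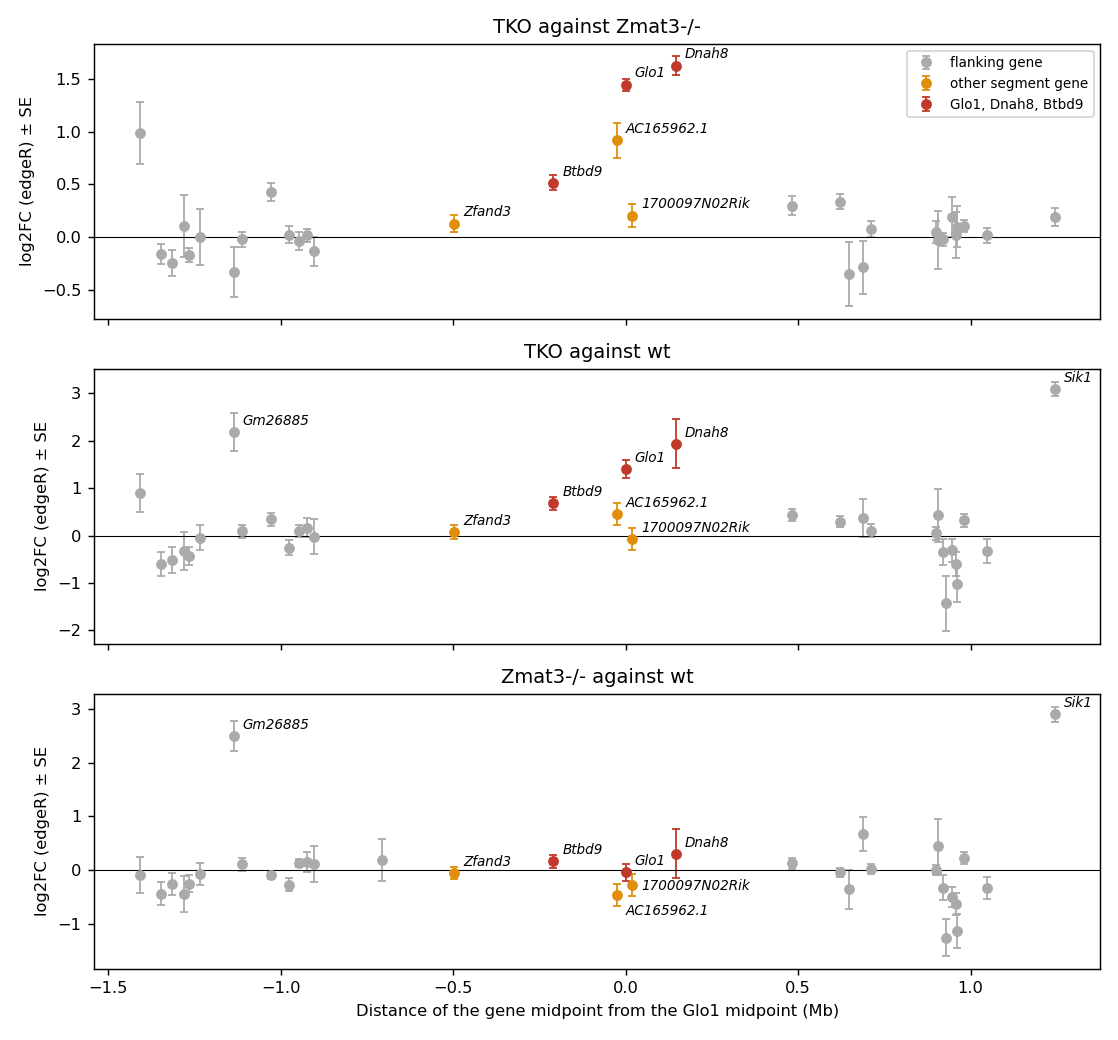
EdgeR log2FC with its standard error for every tested gene of the segment and its flanks, by distance of the gene midpoint from that of *Glo1* (Mb), in the 3 comparisons. In TKO against *Zmat3*-/- mice *Glo1* (1.44) and *Dnah8* (1.63) stand above *AC165962.1* (0.92), *Btbd9* (0.51), *1700097N02Rik* (0.20) and *Zfand3* (0.13). The highest flank gene is at 0.99. *Gm10503* (10.19) is beyond the axis and not drawn.

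The promoter of *Glo1*, the gene at the centre of the segment, is shown at the start that RefSeq annotates, one of several starts of *Glo1* transcripts. The 250 bases upstream of the RefSeq start are chr17:30612660-30612909 of GRCm38.p6, written along the minus strand with motif matches in capitals.

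Glo1 promoter: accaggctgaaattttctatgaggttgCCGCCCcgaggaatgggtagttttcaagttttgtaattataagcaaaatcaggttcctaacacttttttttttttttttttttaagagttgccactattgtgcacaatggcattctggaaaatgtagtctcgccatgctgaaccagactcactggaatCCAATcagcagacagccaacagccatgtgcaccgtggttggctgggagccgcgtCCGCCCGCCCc

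A search of both strands found 3 matches to the GC box GGGCGG, 1 to CCAAT and none to TATAAA. Of 32851 promoter windows of the same length, 32.7% held GGGCGG, 33.8% CCAAT and 12.4% TATAAA, and a match describes letters only. RefSeq promoters were matched for 3 of the 6 genes.

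Of the pathways around the named genes, none of 89 tested genes was called between TKO and *Zmat3*-/- mice by edgeR or DESeq2. Over all genes edgeR called 0.122% in this comparison, so that no call among 89 genes says little. Of 35 other genes of methylglyoxal and glutathione handling, 31 were tested in this comparison (median log2FC −0.05, range −0.58 to 0.10), and 2 had an unadjusted p under 0.05, where 4.49% of all genes did. The glycolytic genes *Gapdh* and *Ldha* had 858 to 1023 and 389 to 420 CPM in TKO mice, within the wt ranges of 675 to 1607 and 270 to 751 CPM. Of 34 other axonemal dynein and motile cilium genes 7 were tested, with log2FC from −0.29 to 0.11 and no unadjusted p under 0.05. *Dnal4*, a dynein light chain gene, had 14.3 to 21.7 CPM in TKO and 17.1 to 18.8 in *Zmat3*-/- mice. Of 39 other genes listed around CUL3 and BTB adaptors 36 were tested, with a median log2FC of 0.01 and 3 at unadjusted p under 0.05. That list also held *Ireb2* and *Tfrc*, which are not adaptor genes. The adaptor genes *Klhl24* and *Spop* had 192 to 243 and 193 to 224 CPM in TKO mice against 177 to 227 and 179 to 200 in *Zmat3*-/- mice.

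The last list held incretin and secretin-family receptor genes together with genes of their ligands, of enzymes and of signalling. Of its 30 other genes 15 were tested between TKO and *Zmat3*-/- mice. An unadjusted p under 0.05 was found for 3 of them, where 4.49% of all genes had one. *Pcsk1*, the prohormone convertase that processes peptide hormone precursors, passed at adjusted p under 0.05, where 0.145% of all genes did so upward. It had 16.6, 14.1 and 18.4 CPM in TKO and 9.79, 8.33, 8.08 and 9.55 in *Zmat3*-/- mice, which did not overlap, a log2FC of 0.82 ± 0.116 (SE, edgeR adjusted p = 0.0176). wt mice 1 to 4 had 7.02, 10.2, 17.5 and 16.3 CPM, spanning both, and this pass was lost in edgeR with the replicate block (adjusted p = 0.164), in 1 edgeR fit of all genotypes (adjusted p = 1.0) and without *Zmat3*-/- mouse 2, 3 or 4 (edgeR adjusted p = 0.0893, 0.0852 and 0.0524) or TKO mouse 1 (edgeR adjusted p = 0.104). The log2FC against wt was 0.31 ± 0.317 (SE, edgeR adjusted p = 0.715). In the comparisons with wt edgeR called no gene of the 4 lists, where it called 0.241% of all genes in TKO and 0.319% in *Zmat3*-/- mice. No call among 90 and 92 tested genes therefore says little. An unadjusted p under 0.05 was found for 8 of the 90 in TKO (10.3% of all genes) and 8 of the 92 in *Zmat3*-/- mice (16.1% of all genes). The median log2FC in TKO against wt mice was −0.19, −0.19, 0.04 and −0.02, in the order of the lists above. DESeq2 called 1 gene of the lists, *Foxj1*, a regulator of motile cilia, in *Zmat3*-/- against wt mice, where its edgeR log2FC was 2.34 ± 0.569 (SE, edgeR adjusted p = 0.107). In TKO against wt mice the edgeR log2FC of *Foxj1* was 2.06 ± 0.686 (SE, edgeR adjusted p = 0.409).

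The genes whose log2 CPM was most like that of *Glo1* over the 11 mice were named by Pearson's r as a description, since any gene high in the same 3 TKO mice scores well. They were *Gm11249* (0.981), *Rps2-ps6* (0.977), *Gm9825* (0.950), *Hmga1b* (0.949) and *Gm10503* (0.945). The first 3 are processed pseudogenes on chromosomes 4, 14 and 6, and *Hmga1b* is an intronless copy of the chromatin protein gene *Hmga1* on chromosome 11. *Gm9825* went from a mean of 0.0442 CPM in wt and 0.0281 in *Zmat3*-/- to 31.7 in TKO mice, and *Hmga1b* from 0.473 and 0.471 to 124. *Glo1-ps* ranked 9th of 13625 genes with r of 0.922, *Btbd9* 27th with 0.804 and *Dnah8* 222nd with 0.649. By Spearman's rho, which does not weigh the gap between TKO and other mice, 2 of the 5 were shared.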

How the data were processed

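RNA-seq libraries of thymocytes were made by the authors with the TruSeq RNA Prep Kit v2. They quantified reads with Salmon (GRCm38.p6) and deposited estimated counts per gene, 1 column per mouse, without normalization. Every value is a whole number. Names and positions came from GENCODE M21, where 54166 of the 54418 Ensembl identifiers were found. The study's methods name a later annotation release.

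Genotypes were compared pairwise with edgeR 4.0.16 and limma 3.58.1 in R 4.3.3 (TMM, quasi-likelihood F-test, 2-sided, Benjamini-Hochberg over all tested genes). A gene was tested if at least n mice, n being the size of the smaller group, reached 20 counts after scaling to the smallest library. Genes of chromosome Y, rRNA, *Xist* and immunoglobulin pseudogenes were not tested. CPM use TMM factors over 11 mice. The SE of a log2FC is its size over the square root of F. Exact tests used a pseudocount of 1. At 3 counts the libraries could show 0.0403 to 0.167 CPM. Intervals cover counting error only. The p-values of edgeR and DESeq2 weigh a difference against a spread between mice that is estimated partly over all genes. Those of the permutation tests count regroupings of the mice. Scripts were tested on simulated counts.

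The 6 genes and all lists were chosen with earlier results of these data known. Named besides them were the tested genes of the segment, called and nearest flank genes, list genes with adjusted p under 0.05 or else the 2 with the highest mean CPM, the 5 genes most like *Glo1*, and the targeted genes. *Xist*, *Foxj1*, *Dnah17*, *Tbc1d22b*, *Ubash3a*, the marker genes given by name and low-count segment genes were added after their values were seen.

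Samples were grouped by genotype in the labels. Replicate numbers in the labels are not said to mark litters. In *Zmat3*-/- against wt, same-numbered mice deviated together (correlation 0.127 to 0.339 for all 4 pairs), so the numbers were taken as pairs there, although only 2 of the 4 *Zmat3*-/- mice correlated best with their own number and other pairs within numbers 1 and 2 or 3 and 4 reached 0.157 to 0.376. Alternatives were DESeq2 1.42.0, RLE size factors, 2 other filters, all genotypes in 1 fit, the replicate block, *Xist* level as covariate, no gene classes left out, *Glo1-ps* counts added to *Glo1*, Spearman correlation, a pseudocount of 0.1, each mouse left out, and, added after the data were seen, each wt pair left out. The sequence of *Glo1-ps* is not reported here.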

Additional observations from a re-analysis of the deposited data

Results flagged for a closer look

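Of the 12 groups of 4 mice formed by the 6 genes in wt and *Zmat3*-/- thymocytes, 5 had 1 mouse far from the other 3 by Dixon's test. In 3 of them the other 3 mice had no counts, so that any count in 1 mouse passes and the rate of about 1 in 20 that chance gives elsewhere does not apply: *Glo1-ps* in wt mouse 4 (0.115 CPM), and *Gm10503* in wt mouse 4 (0.0385 CPM) and in *Zmat3*-/- mouse 2 (0.0325 CPM). *Glp1r* in *Zmat3*-/- mouse 4 was at 0.664 CPM from 16 counts, above the 6 or 7 counts of the other 3. *Btbd9* was lowest in *Zmat3*-/- mouse 2, at 33.8 CPM, where the other 3 mice lay within 36.7 to 36.8 CPM.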

How the results depend on the processing

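The order of TKO above all other mice rests on 3 TKO mice, and low-count genes are limited by depth. The log2FC of *Glo1*, *Dnah8*, *Btbd9*, *Glo1-ps* and *Gm10503* in both TKO contrasts stayed positive under every alternative tried. These genes were chosen for high TKO counts, and each had every TKO mouse above every other mouse. Their sign could therefore hardly turn, and it is no support for the difference. That of *Glo1-ps* against wt ran from 8.33 to 12.79 and that of *Gm10503* from 9.12 to 12.13, both lowest without wt mice 1 and 2 and highest without wt mice 3 and 4. wt mouse 4 was the only wt mouse with counts of either gene. Against *Zmat3*-/- mice *Glo1-ps* ran from 8.12 to 10.42, highest without *Zmat3*-/- mouse 1, and *Gm10503* from 9.76 to 12.02, highest without *Zmat3*-/- mouse 2, which held its only count.

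Between TKO and wt mice 32 genes were called. DESeq2 called 103, no filter on low counts 51, 1 fit of all genotypes 68, the replicate block 16 and the leave-one-out fits 15 to 34, with 15 without TKO mouse 1, 15 without TKO mouse 2 and 17 without TKO mouse 3. Leaving out wt mice 1 and 2 gave 244 and wt mice 3 and 4 gave 672. Between *Zmat3*-/- and wt mice 43 were called, with 123 by DESeq2, 72 in 1 fit, 8 with the block and 12 to 47 with a mouse left out (12, 14, 13 and 12 without *Zmat3*-/- mice 1 to 4, 23 and 19 without wt mice 3 and 4), 444 without wt mice 1 and 2, and 733 without wt mice 3 and 4. Between TKO and *Zmat3*-/- mice 16 were called, and 45 without the filter. The cause was not tested.

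In the flanks and segment, calls other than the 6 genes were 1 in TKO against wt, 2 with DESeq2 or in 1 fit, and 3 without either wt pair. In *Zmat3*-/- against wt they were 2, with 1 under the block, which lost *Gm26885*, and 1 to 2 in leave-one-out fits (the same gene lost its call without each *Zmat3*-/- mouse). They were 4 without wt mice 1 and 2 and 3 without wt mice 3 and 4. From 0, the pathway lists had 1 called gene without wt mice 1 and 2 and 3 without wt mice 3 and 4 in both comparisons with wt, and 1 with DESeq2 in *Zmat3*-/- against wt. Of the 5 genes most like *Glo1*, 2 remained by Spearman's rho.

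Signs turned only for values near 0 or between the wt pairs. In *Zmat3*-/- against wt the log2FC of *Glo1* ran from −0.16 to 0.063 with a mouse left out and was 0.27 without wt mice 1 and 2, the difference in log2(CPM + 1) ran from −0.15 to 0.087, and *Dnah8* was −0.35 without wt mice 1 and 2. *Zfand3* ran from −0.13 to 0.0099 and was 0.12, and *1700097N02Rik* was 0.10, without wt mice 1 and 2. *Pcsk1* was 0.072 without wt mice 3 and 4. In TKO against wt, *Zfand3* ran from −0.014 to 0.18 and was −0.079 without wt mice 3 and 4, *1700097N02Rik* ran from −0.20 to 0.11, with 0.028 with *Xist* as covariate and 0.31 without wt mice 1 and 2, and *Pcsk1* was −0.11 without wt mice 1 and 2.

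Replicate numbers were not taken as pairs in the comparisons with TKO mice. The correlations of same-numbered mice were 0.0734 to 0.405 with wt and 0.0102 to 0.195 with *Zmat3*-/- mice. In each, 2 of 3 TKO mice correlated best with their own number, beside 2 of 4 in *Zmat3*-/- against wt. These values do not separate the 3 comparisons, so whether the numbers mark pairs is not known for any of them. The block left the count at 16 between TKO and *Zmat3*-/- mice.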
